A study of Mus musculus with 11 samples.

Results

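The noncoding snoRNA host genes are transcribed by RNA polymerase II into RNAs whose introns carry small nucleolar RNAs (snoRNAs) and whose spliced exons are not known to encode a functional protein. The 10 genes listed were Gas5, Snhg1, Snhg3, Snhg4, Snhg5, Snhg6, Snhg8, Snhg12, Snhg15 and Snhg17, chosen by name as noncoding hosts of snoRNAs that resemble RNAs with a terminal oligopyrimidine (TOP) tract. The Ensembl identifiers of the counted genes were mapped to GRCm38 symbols, and 9 of the 10 were found among 54838 counted genes; Snhg4 was not analysed here. All 9 passed the filter on low counts and were tested.

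When the intron of a host gene is excised and trimmed, it releases a snoRNA that guides the chemical modification or cleavage of ribosomal RNA. Box C/D snoRNAs direct methylation of ribose and box H/ACA snoRNAs direct the conversion of uridine to pseudouridine. The spliced remainder of many hosts begins, like the mRNAs of ribosomal proteins, with a TOP tract, a run of pyrimidines, is taken up by ribosomes, and is short-lived because nonsense-mediated decay (NMD) removes it.

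RNA was sequenced from E14 mouse embryonic stem cells (ESCs), an established line, kept in medium with LIF on gelatin. The cells had been transfected 36 h earlier with a scrambled siRNA as control, sequenced as 3 libraries, or with 1 of a pair of CMTR1 siRNAs, sequenced as 4 libraries each. CMTR1 methylates the ribose of the first transcribed nucleotide next to the cap, and the comparisons ask how RNA levels differ between cells given these siRNAs and cells given the control. Libraries were directional and depleted of ribosomal RNA and held 6738478 to 8382318 counted reads. The median library had 7876141 reads in the control group, 7526822 in the siRNA 1 group and 7758091 in the siRNA 2 group.

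The RNA of the targeted gene itself did not pass the test with either siRNA. Cmtr1 was counted at 21.3, 21.7 and 17.9 CPM (reads divided by the library's total, put on one common scale) in the control libraries, at 21.1, 21.3, 16.2 and 18 CPM with siRNA 1, and at 15.6, 16.8, 16.4 and 19.5 CPM with siRNA 2. The groups overlapped for both siRNAs. The log2 fold change was -0.09 (SE 0.11, 95% interval -0.30 to 0.13, adjusted p = 0.743) for siRNA 1 and -0.25 (SE 0.11, interval -0.46 to -0.03, adjusted p = 0.144) for siRNA 2, from 110 to 176 reads per library. Cmtr1 shares exons with the annotated genes Gm28043 and Gm28052, counted at 3.17 to 6.74 CPM and at 0 reads, so reads in the shared part could be lost from its count or split, and the counts do not measure CMTR1 protein. The groups are therefore called the libraries labelled CMTR1 siRNA 1 and CMTR1 siRNA 2, siRNA 1 and siRNA 2 for short, and every direction given here rests on those labels. The study's methods speak of 3 biological replicates for sequencing, while the labels give 3, 4 and 4 libraries. The labels do not say that the libraries of a group came from separate cultures, so the p-values measure the spread between these libraries only.

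All 10 ESC markers looked at, Pou5f1, Sox2, Nanog, Zfp42, Esrrb, Klf4, Dppa5a, Tdgf1, Dppa4 and Utf1, were above 1 CPM in every group. By CPM the most abundant was Pou5f1, which encodes a core pluripotency transcription factor, with 484 ± 11.9 CPM (mean ± SD, n = 3) in control.

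The sequence around the annotated start of 8 of the members is shown because a TOP tract, where present, lies at the very start of the RNA. RefSeq (GRCm38.p6) held entries for these 8 and none was used for Snhg4 and Snhg6. Each line gives 30 bases before the start and 30 from it onward, on the sense strand and 5′ to 3′. Capitals mark the longest run that opens with a C, goes on with only C or T, and begins within 10 bases of the start.
Gas5: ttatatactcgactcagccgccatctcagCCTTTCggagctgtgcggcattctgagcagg
Snhg1: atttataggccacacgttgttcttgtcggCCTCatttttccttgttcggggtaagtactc
Snhg3: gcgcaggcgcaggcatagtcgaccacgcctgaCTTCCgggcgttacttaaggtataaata
Snhg5: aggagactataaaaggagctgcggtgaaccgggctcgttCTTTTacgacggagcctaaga
Snhg8: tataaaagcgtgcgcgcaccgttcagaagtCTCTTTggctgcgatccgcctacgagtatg
Snhg12: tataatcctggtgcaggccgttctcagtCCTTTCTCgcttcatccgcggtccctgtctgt
Snhg15: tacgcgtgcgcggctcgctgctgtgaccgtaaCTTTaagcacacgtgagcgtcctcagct
Snhg17: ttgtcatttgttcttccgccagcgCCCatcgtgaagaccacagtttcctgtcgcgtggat
These windows lie at chr1:161035136-161035195 (plus strand) for Gas5, chr19:8723457-8723516 (plus) for Snhg1, chr4:132353657-132353716 (minus) for Snhg3 and chr9:88522868-88522927 (minus) for Snhg5. Those of Snhg8, Snhg12, Snhg15 and Snhg17 lie at chr3:123508307-123508366 (minus), chr4:132308648-132308707 (plus), chr11:6528731-6528790 (minus) and chr2:158361493-158361552 (minus). The run was 8 bases long in Snhg12, 6 in Gas5 and Snhg8, 5 in Snhg3 and Snhg5, 4 in Snhg1 and Snhg15, and 3 in Snhg17. Gas5 and Snhg17 each had another annotated start, with a run of 3 bases. Thus 5 of the 8 members, or 5 of their 10 promoter entries, had a run of at least 5 bases, where 30.7% of all 32851 promoter entries had one, and 1 had a run of at least 8 (8.11% of all entries). As the members were chosen as hosts of this type, these counts describe the choice and are no finding of their own. On the opposite strand 2 members had a run of at least 5 bases (34.9% of all promoters) and 0 had one of at least 8 (9.73%). A run is a description of letters near an annotated start, and the start used in these cells was not measured here.

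Against the control, 5 of the 9 host genes were called lower with siRNA 1 and 6 of the 9 with siRNA 2, at an adjusted p of at most 0.05, and none was called higher. With siRNA 1, Snhg1, Snhg3, Snhg5, Snhg8 and Snhg12 fell; of all 16073 genes tested, 4.67% were called and 1.97% were called lower. With siRNA 2 the same 5 genes and Gas5 fell, beside 9.72% of all genes called and 3.55% called lower. The 5 members and the 6 members were also those in which each siRNA library lay below all 3 control libraries, a separation seen in 6.23% of all genes for siRNA 1 and 6.99% for siRNA 2. The shares of all genes stand beside these counts as a description and are no test of the list. Falls of the called members ranged from 13.2% to 25.7% with siRNA 1 and from 16.2% to 26.4% with siRNA 2. Without control replicate 1, or without control replicate 2, 3 members were called with siRNA 1, since Snhg1 and Snhg8 no longer passed; with siRNA 2 the count was 6 whichever library was left out. The median log2 fold change over the 9 members was -0.20 and -0.26, where that over all genes was 0.024 and 0.029. Both comparisons use the same 3 control libraries, so their values stand side by side and are not independent of each other. In bulk RNA, fewer cells of a type and less RNA per cell cannot be told apart.

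**Figure D1:**
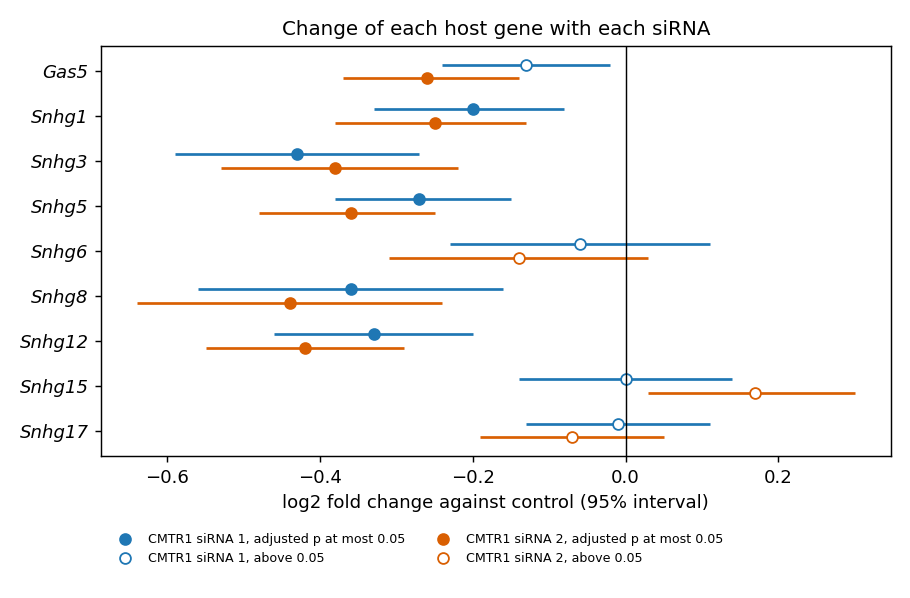
Log2 fold change of each host gene against the control for siRNA 1 (blue) and siRNA 2 (orange), with 95% intervals as lines. Filled points have an adjusted p of at most 0.05. The filled points all lie left of 0, and Snhg15 with siRNA 2 lies right of it at 0.17.

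**Figure D2:**
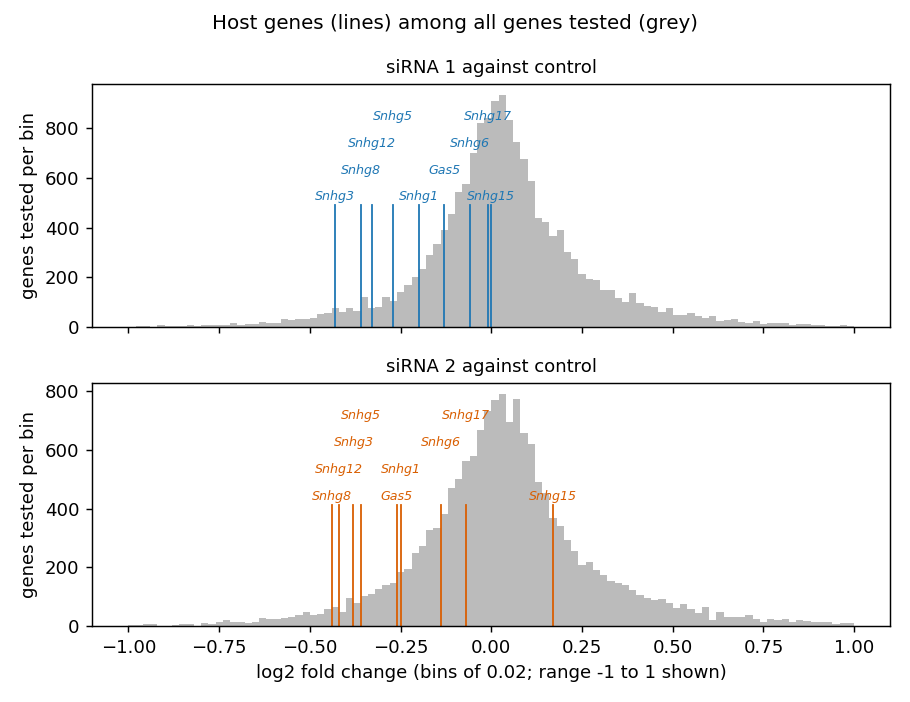
Number of tested genes per bin of log2 fold change (grey) for siRNA 1 (upper panel) and siRNA 2 (lower panel), over the range -1 to 1, with a coloured line at each host gene's value. The lines spread from -0.43 to 0.00 for siRNA 1 and from -0.44 to 0.17 for siRNA 2.

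How many genes went each way over the whole table depended on the scaling of the libraries and differed again in DESeq2, while the number of host genes called was the same in these fits. With total counts, 316 genes were called lower and 435 higher with siRNA 1 (42.1% lower), and 571 lower and 991 higher with siRNA 2 (36.6% lower). With TMM factors the split was 400 lower and 346 higher (53.6% lower) and 734 lower and 728 higher (50.2% lower). DESeq2, which has its own scaling and its own test, gave 322 lower and 199 higher (61.8% lower) and 549 lower and 409 higher (57.3% lower). Left-out libraries moved the totals as well: the 751 genes called with siRNA 1 became 355, 450 and 425 without control replicate 2, control replicate 3 and siRNA 1 replicate 2, and the 1562 with siRNA 2 became 916, 807 and 1007 without control replicate 2, control replicate 3 and siRNA 2 replicate 1. With total counts, TMM factors and DESeq2 alike, all libraries kept, the members numbered 5 lower and 0 higher with siRNA 1, and 6 lower and 0 higher with siRNA 2.

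Summed over the 9 genes, the hosts took 801, 753 and 719 CPM in the control libraries, 678, 662, 674 and 674 CPM with siRNA 1, and 617, 604, 683 and 671 CPM with siRNA 2. No library of either siRNA reached the lowest control. The group means were 757 ± 41.2 CPM (SD, n = 3), 672 ± 6.64 CPM (n = 4; 88.7% of control) and 644 ± 38.7 CPM (n = 4; 85% of control). Gas5, Snhg17, Snhg1 and Snhg5, which have the most reads, weigh most in these sums. Per library, the median difference of the 9 genes from their control mean was -0.24, -0.19, -0.15 and -0.22 on the log2 scale with siRNA 1, and -0.29, -0.40, -0.15 and -0.21 with siRNA 2. The siRNA 2 libraries were thus the more scattered, with replicate 2 the lowest.

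**Figure D3:**
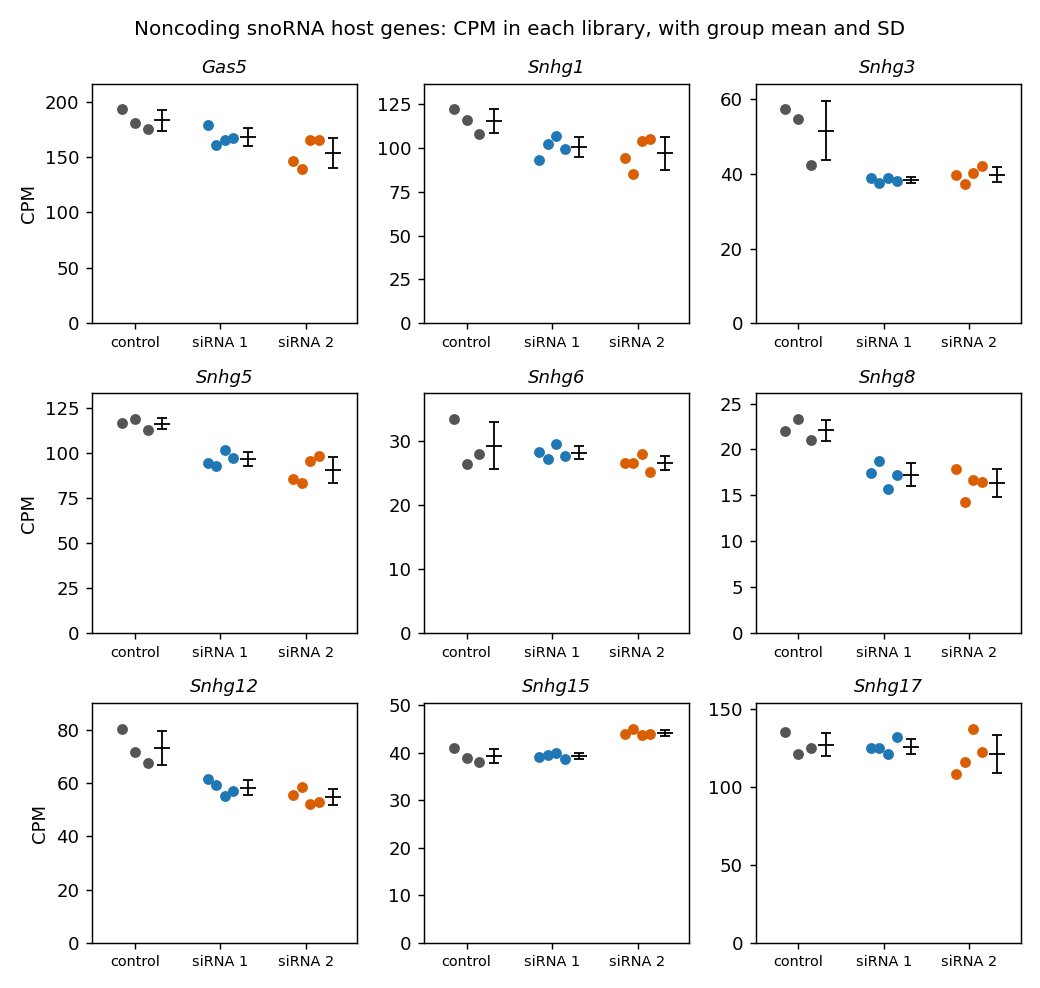
CPM of each host gene in each library (points) for the control (grey, 3 libraries), siRNA 1 (blue, 4) and siRNA 2 (orange, 4), with the group mean and SD as bars; each axis starts at 0. Snhg3, Snhg5, Snhg8 and Snhg12 show all siRNA libraries below the control, while those of Snhg6 and Snhg17 overlap with it.

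Among the hosts of box C/D snoRNAs, Gas5 is named for its accumulation in growth-arrested cells. Its gene (ENSMUSG00000053332, chr1:161034422-161038539, plus strand) holds 10 annotated snoRNA genes, of which 2 that overlap are both named Snord80. Gas5 stood at 193, 181 and 175 CPM in control, at 179, 161, 165 and 167 CPM with siRNA 1, and at 146, 139, 165 and 165 CPM with siRNA 2. The siRNA 2 libraries were all below the control, whereas 1 of the siRNA 1 libraries lay within the control range. Gas5 fell by 0.26 on the log2 scale with siRNA 2 (SE 0.06, 95% interval -0.37 to -0.14, adjusted p = 0.00158). With siRNA 1 the log2 fold change was -0.13 (interval -0.24 to -0.02), which did not pass the test (adjusted p = 0.21).

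Snhg1, known earlier as UHG, holds 8 annotated snoRNAs of the C/D type (ENSMUSG00000108414, chr19:8723475-8726443, plus strand). Its values were 122, 116 and 108 CPM in control, 93.3, 102, 107 and 99.2 CPM with siRNA 1, and 94, 84.9, 104 and 105 CPM with siRNA 2. Every siRNA library was below the control, by a narrow margin in replicate 3 of siRNA 1. Snhg1 fell by 0.20 with siRNA 1 (SE 0.06, adjusted p = 0.0428) and by 0.25 with siRNA 2 (SE 0.06, adjusted p = 0.00478) on the log2 scale. The call for siRNA 1 was near the threshold. It was lost without control replicate 1 (-0.16, adjusted p = 0.212) or 2 (-0.20, adjusted p = 0.151), and without siRNA 1 replicate 1 (-0.17, adjusted p = 0.144), 2 (-0.21, adjusted p = 0.0864) or 4 (-0.20, adjusted p = 0.0908). Over all alternatives tried, this adjusted p ranged from 0.00998 to 0.212. Slc3a2, which encodes a subunit of amino acid transporters, starts 106 bases away on the other strand; its log2 fold change was -0.01 (adjusted p = 0.938) with siRNA 1 and -0.10 (adjusted p = 0.221) with siRNA 2.

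Snhg5 carries Snord50a and Snord50b in its introns (ENSMUSG00000097195, chr9:88521050-88522929, minus strand). It was counted at 117, 119 and 113 CPM in control, at 94.8, 93, 102 and 97.3 CPM with siRNA 1, and at 85.7, 83.3, 95.6 and 98.3 CPM with siRNA 2. The control libraries lay close together and clear of all 8 siRNA libraries. Snhg5 fell by 0.27 on the log2 scale with siRNA 1 (SE 0.06, interval -0.38 to -0.15, adjusted p = 0.00239), a fall of 16.9%. With siRNA 2 it fell by 0.36 (SE 0.06, interval -0.48 to -0.25, adjusted p = 2.57e-05), a fall of 22.1%. Of its sequence words of 75 bases, 5.2% were also found in 9330159M07Rik or 9430037G07Rik, and reads there could be assigned to another gene.

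Snhg6, the host of Snord87 (ENSMUSG00000098234, chr1:9941959-9944118, minus strand), did not pass the test with either siRNA. Its 11 libraries ranged from 25.2 to 33.5 CPM, and control replicate 1 was the highest. The log2 fold change was -0.06 (interval -0.23 to 0.11, adjusted p = 0.802) with siRNA 1 and -0.14 (interval -0.31 to 0.03, adjusted p = 0.326) with siRNA 2. Over 127 bases its exons lie opposite exons of Mcmdc2, and the strand setting of the counting is not given in the sources used here.

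Among the hosts of box H/ACA snoRNAs, Snhg3 carries Snora73a and Snora73b (ENSMUSG00000085241, chr4:132348014-132353686, minus strand). Its values were 57.3, 54.8 and 42.5 CPM in control, 38.9, 37.5, 39 and 38.1 CPM with siRNA 1, and 39.6, 37.2, 40.3 and 42 CPM with siRNA 2. Control replicate 3 lay well below the other control libraries and just above the highest siRNA library, while the siRNA 1 libraries were nearly equal. Snhg3 fell by 0.43 on the log2 scale with siRNA 1 (interval -0.59 to -0.27, SE 0.08, adjusted p = 0.000281). With siRNA 2 it fell by 0.38 (interval -0.53 to -0.22, SE 0.08, adjusted p = 0.000762). These were falls of 25.7% and 23%. Its annotated exons share 135 bases with Rcc1 and 159 bases with Snora73a on the same strand, 29.8% of their length together, and 705 bases with Gm17300 on the opposite strand, so its count is uncertain there. Gm17300 itself had at most 2 reads in a library. Rcc1, the nucleotide exchange factor of the GTPase Ran, lies across the Snhg3 locus and had log2 fold changes of -0.15 (adjusted p = 0.0632) with siRNA 1 and -0.17 (adjusted p = 0.0141) with siRNA 2.

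Snhg8, the host of Snora24 (ENSMUSG00000104960, chr3:123507552-123508404, minus strand), had the fewest reads of the 9 members. It was counted at 22, 23.3 and 21 CPM in control, at 17.4, 18.7, 15.7 and 17.2 CPM with siRNA 1, and at 17.9, 14.3, 16.7 and 16.4 CPM with siRNA 2. No siRNA library overlapped with the control. On the log2 scale Snhg8 fell by 0.36 with siRNA 1 (interval -0.56 to -0.16, SE 0.10, adjusted p = 0.0236). With siRNA 2 it fell by 0.44 (interval -0.64 to -0.24, SE 0.10, adjusted p = 0.00231). Its standard error was the widest of the members. The call for siRNA 1 was lost without control replicate 1 (-0.36, adjusted p = 0.0588) or 2 (-0.32, adjusted p = 0.156), or without siRNA 1 replicate 3 (-0.31, adjusted p = 0.0706), and over all alternatives its adjusted p ranged from 0.00978 to 0.156.

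Snhg12 carries both types, with 5 annotated snoRNA genes: Snora44, Snora61, Snord99 and 2 overlapping entries named Snora16a (ENSMUSG00000086290, chr4:132308623-132311024, plus strand). Its values were 80.4, 71.7 and 67.6 CPM in control, 61.6, 59.2, 55.1 and 57.1 CPM with siRNA 1, and 55.7, 58.6, 52.3 and 52.8 CPM with siRNA 2. All 8 siRNA libraries were below the control. Snhg12 fell by 0.33 on the log2 scale with siRNA 1 (interval -0.46 to -0.20, SE 0.06, adjusted p = 0.000838). With siRNA 2 it fell by 0.42 (interval -0.55 to -0.29, SE 0.07, adjusted p = 1.98e-05). These were falls of 20.6% and 25.1%. Snhg12 and Snhg3 lie close together on chromosome 4, on opposite strands, with Snhg3 at chr4:132348014-132353686.

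Snhg15, the host of Snora9 (ENSMUSG00000085156, chr11:6525591-6528760, minus strand), did not fall. It stood at 41, 38.9 and 38.1 CPM in control, at 39.2, 39.6, 39.9 and 38.6 CPM with siRNA 1, and at 43.9, 45, 43.8 and 44 CPM with siRNA 2. The siRNA 1 libraries lay inside the control range, and the siRNA 2 libraries were all above both other groups. The log2 fold change was 0.00 (SE 0.07, interval -0.14 to 0.14, adjusted p = 0.999) with siRNA 1 and 0.17 (SE 0.07, interval 0.03 to 0.30) with siRNA 2. The second did not pass the test over all genes (adjusted p = 0.115).

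Snhg17 holds 3 annotated snoRNAs (ENSMUSG00000085385, chr2:158353700-158361580, minus strand) and also did not pass. Its libraries ranged from 121 to 135 CPM in control, from 121 to 132 CPM with siRNA 1 and from 108 to 137 CPM with siRNA 2. The 3 groups overlapped. Its log2 fold change was -0.01 (interval -0.13 to 0.11, adjusted p = 0.943) with siRNA 1 and -0.07 (interval -0.19 to 0.05, adjusted p = 0.498) with siRNA 2.

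Between the siRNAs, 0 of the 9 members were called by edgeR, where 7.44% of all genes were called and 2.96% were called lower with siRNA 2. At an unadjusted p under 0.05 there were 2 members, Gas5 and Snhg15, and DESeq2 and edgeR's exact test called 0. For Gas5 the log2 difference of siRNA 2 from siRNA 1 was -0.13 (interval -0.23 to -0.02, adjusted p = 0.128), so its call with siRNA 2 alone is not shown to differ from siRNA 1. Without siRNA 2 replicate 3 the difference was -0.16 and passed (adjusted p = 0.0459, in a range of 0.0459 to 0.414 over the alternatives). For Snhg15 it was 0.17 (interval 0.04 to 0.29, adjusted p = 0.0979). The other members ranged from -0.09 to 0.05, with adjusted p from 0.338 to 0.756.

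Levels were compared between genes as CPM per kilobase of exon in the control. Over all annotated exons, Snhg5 was the highest at 67.3 ± 1.62 CPM per kilobase (SD, n = 3), followed by Snhg3 at 52.2 ± 8 and Gas5 at 48.7 ± 2.44. Snhg3 and Gas5 overlapped within their spread. Snhg1 had 38.9 ± 2.32 CPM per kilobase, Snhg12 30.5 ± 2.72, Snhg15 28.9 ± 1.11, Snhg8 25.9 ± 1.36 and Snhg6 25.6 ± 3.22. Snhg12 and Snhg15, and likewise Snhg8 and Snhg6, did not differ beyond their spread. Snhg17 was the lowest over all annotated exons, at 18 ± 0.986 CPM per kilobase. With the shorter exon length described next it had 29.1 ± 1.59, and Snhg6 was the lowest at 25.6 ± 3.22, within the spread of Snhg17. The order rests on the exon length used, since retained introns count as exons in the annotation: without transcripts of that type the exon length of Gas5 went from 3760 to 851 bases and its level to 215 CPM per kilobase, and that of Snhg1 from 2969 to 865 bases and 134 CPM per kilobase. Gas5 and Snhg1 then exceeded Snhg5, at 111 CPM per kilobase. For Snhg12 the length stayed at 2402 bases, which is the whole gene in 1 exon block, so no intron was left out of it. Its level is therefore not comparable with those of Gas5 and Snhg1 by the shorter length. Only the length was changed, and the same CPM of the whole gene were divided by it. Reads in retained introns, where counted, thus stayed in these levels and raise them, so neither order is settled.

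**Figure D4:**
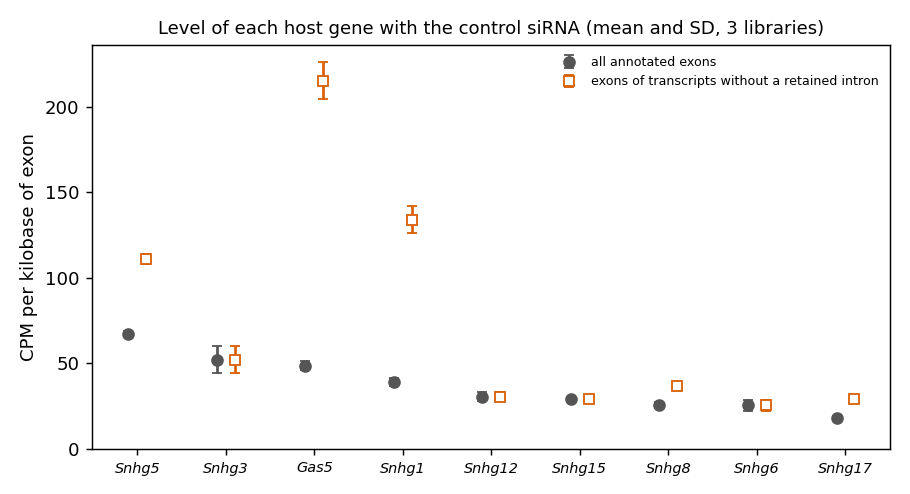
Level of each host gene in the control libraries as CPM per kilobase of exon (mean and SD, n = 3). The same CPM were divided by the length of all annotated exons (grey circles) or of exons of transcripts not annotated as retaining an intron (orange squares). Gas5 moves from 48.7 to 215 and Snhg1 from 38.9 to 134, while Snhg3, Snhg6, Snhg12 and Snhg15 do not move. For Snhg12 both lengths are that of the whole gene, 2402 bases.

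The snoRNAs themselves were mostly out of reach. Of 33 snoRNA genes annotated inside the 9 hosts, overlapping entries of Snord80 and of Snora16a counted separately, 30 lie over their whole length in an annotated exon of the host and had 0 reads in all 11 libraries, where a count of 0 allows up to 3 reads, or 0.358 to 0.445 CPM, for counting error only. Reads there overlap with the host and can be left out as ambiguous, so these zeros do not measure the snoRNAs. The 3 with reads were Snora73b, Snora73a and Snord87.

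Snora73b, a snoRNA of the type that acts in the cleavage of the ribosomal RNA precursor, lies in an intron of Snhg3 with no base in its exons. It was counted at 223, 189 and 194 CPM in control, at 202, 187, 174 and 173 CPM with siRNA 1, and at 145, 122, 157 and 139 CPM with siRNA 2. The siRNA 2 libraries were below all others, and the siRNA 1 libraries overlapped with the control. Snora73b fell by 0.52 on the log2 scale with siRNA 2 (SE 0.06, interval -0.65 to -0.40, adjusted p = 7.72e-08). With siRNA 1 the log2 fold change was -0.14 (interval -0.26 to -0.01, adjusted p = 0.242). The siRNAs differed by -0.39 (interval -0.51 to -0.27, adjusted p = 1.44e-05), where for the host Snhg3 they differed by 0.05 (interval -0.10 to 0.20, adjusted p = 0.756). Reads in Snora73b may come from the mature snoRNA or from unspliced RNA of Snhg3 or Rcc1, which the counts do not tell apart.

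**Figure D5:**
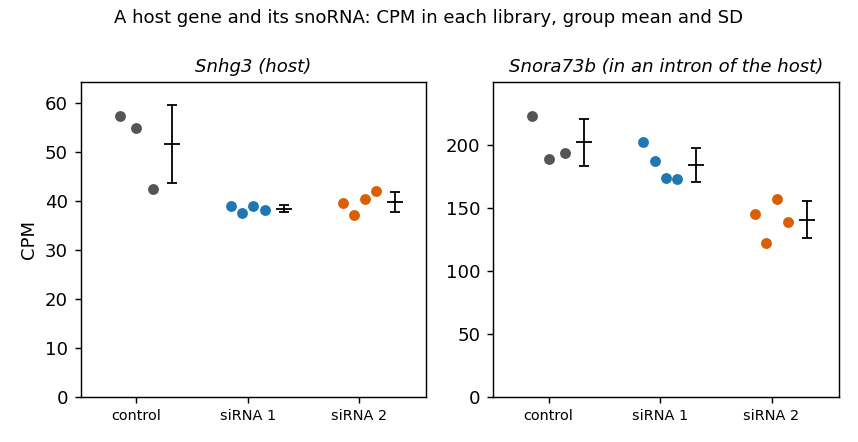
CPM in each library (points) of the host Snhg3 (left) and of Snora73b in its intron (right) for the control (grey), siRNA 1 (blue) and siRNA 2 (orange), with group mean and SD as bars. Snhg3 is lower with both siRNAs, while Snora73b with siRNA 1 overlaps with the control and with siRNA 2 lies below it.

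Snora73a had 8 to 27 reads per library and Snord87 had 4 to 18, too few to show changes of the size seen in the hosts. For Snora73a the log2 fold changes were -0.57 (SE 0.28, adjusted p = 0.295) and 0.09 (SE 0.25, adjusted p = 0.875) with siRNA 1 and siRNA 2, and for Snord87 -0.02 (SE 0.30, adjusted p = 0.985) and -0.72 (SE 0.34, adjusted p = 0.179). Over all 134 snoRNA genes that passed the filter, inside these hosts or elsewhere, 0 were lower and 1 was higher with siRNA 1, and 18 were lower and 0 higher with siRNA 2. With TMM factors these counts were 0 lower and 0 higher with siRNA 1 and 21 lower and 0 higher with siRNA 2, and with DESeq2 0 and 0, and 12 and 0. The 18 became 7 without control replicate 1. Unadjusted p-values under 0.05 numbered 9 and 37. Their median log2 fold change was -0.028 and -0.19. Between the siRNAs, 15 of the 134 were lower with siRNA 2 (11.2%, beside 2.96% of all genes) and 0 higher, with a median of -0.19. DESeq2 gave 9 lower and 0 higher there. The 15 became 8 without siRNA 1 replicate 1 or 2 or without siRNA 2 replicate 4. The lower Snora73b with siRNA 2 than with siRNA 1 was thus not particular to it among snoRNA genes.

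Of 11 other noncoding snoRNA hosts tested, 1 was lower and 1 higher with siRNA 1, and 2 were lower and 1 higher with siRNA 2; their median log2 fold changes were -0.013 and -0.19. Zfas1, whose introns carry C/D snoRNAs, fell by 0.27 on the log2 scale with siRNA 1 (adjusted p = 0.00724) and by 0.35 with siRNA 2 (adjusted p = 0.000261). The siRNA 1 call was lost without control replicate 1 (-0.23, adjusted p = 0.0745) or 2 (-0.24, adjusted p = 0.0802), in a range of 0.00115 to 0.0802. Snhg16 fell by 0.27 with siRNA 2 (adjusted p = 0.00779) and had -0.12 with siRNA 1 (adjusted p = 0.412). Its siRNA 2 call was lost without control replicate 3 (-0.24, adjusted p = 0.0634) or siRNA 2 replicate 1 (-0.22, adjusted p = 0.0535), in a range of 0.000376 to 0.0634. Snhg11 went the other way. It had 63.1 CPM in control, 68.4 CPM with siRNA 1 and 121 CPM with siRNA 2, a log2 fold change of 0.11 (adjusted p = 0.419) and 0.94 (adjusted p = 3.61e-14). Meg3, an imprinted noncoding gene, rose by 0.18 with siRNA 1 (adjusted p = 0.0191) and had 0.09 with siRNA 2 (adjusted p = 0.286). The Meg3 call was lost in DESeq2 (0.16, adjusted p = 0.072) and without control replicate 2 (0.17, adjusted p = 0.117), control replicate 3 (0.18, adjusted p = 0.0806), siRNA 1 replicate 1 (0.15, adjusted p = 0.0868) or siRNA 1 replicate 2 (0.16, adjusted p = 0.11), in a range of 0.00173 to 0.117.

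Protein-coding genes that host snoRNAs in their introns were called in both directions, in shares that varied with the fit. Of 221 tested, 10 were lower and 5 higher with siRNA 1, and 23 lower and 17 higher with siRNA 2, with medians of -0.0094 and -0.0027. TMM factors gave 11 lower and 4 higher with siRNA 1 and 28 lower and 12 higher with siRNA 2, and DESeq2 13 and 4, and 32 and 9. Without the ribosomal protein genes among them, 191 were tested, with 9 lower and 5 higher with siRNA 1 and 14 lower and 17 higher with siRNA 2; for siRNA 2 TMM factors then gave 16 lower and 12 higher and DESeq2 16 and 9. Of the 221, 3 and 13 were lower without control replicate 2, and 9 were higher with siRNA 2 without control replicate 3. Of the 191, 3 were lower with siRNA 1 and 9 with siRNA 2 without control replicate 2. Without control replicate 3, 9 of the 191 were higher with siRNA 2. Of 808 other long noncoding genes tested, 8 were lower and 8 higher with siRNA 1 and 9 lower and 32 higher with siRNA 2, with medians of 0.074 and 0.095. Their balance differed between fits. TMM factors, which change the scaling alone, gave 9 lower and 5 higher with siRNA 1 and 13 lower and 24 higher with siRNA 2, with medians of 0.054 and 0.07. DESeq2 gave 7 lower and 2 higher with siRNA 1 and 9 lower and 8 higher with siRNA 2, with medians of 0.049 and 0.064. Without control replicate 2, 0 were higher with siRNA 1, and without siRNA 1 replicate 3, 14 were. Without control replicate 3, 12 were higher with siRNA 2. The lower ones became 4 with siRNA 1 without control replicate 1, and with siRNA 2 became 5 without control replicate 1 or 3 and 16 without siRNA 2 replicate 3. The members' medians of -0.20 and -0.26 lay below those of both lists.

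Genes listed for a TOP tract in their mRNAs fell where they were called. Of 23 such genes outside the ribosomal proteins, most of which encode translation factors, 7 were lower with siRNA 1 and 11 with siRNA 2, and 0 were higher with either; the medians were -0.11 and -0.13. Eif4a2, an RNA helicase of translation initiation, fell by 0.33 and 0.34 on the log2 scale (adjusted p = 5.09e-05 and 1.64e-05), and Eef1b2, an elongation factor subunit, by 0.24 and 0.25 (adjusted p = 0.000266 and 5.55e-05). Of 82 ribosomal protein genes tested, 4 were lower with siRNA 1 and 20 with siRNA 2, and 0 were higher; the medians were -0.068 and -0.085. TMM and DESeq2 gave 9 and 9 lower TOP genes with siRNA 1 and 12 and 12 with siRNA 2, and 5 and 6 lower ribosomal protein genes with siRNA 1 and 25 and 31 with siRNA 2, with 0 higher in each. Without control replicate 2, 4 TOP genes were lower with either siRNA, and 1 and 11 ribosomal protein genes.

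Factors that assemble snoRNA particles or degrade the spliced hosts showed few calls. Of 8 core snoRNP proteins and 11 assembly factors, edgeR called 0 with either siRNA. Unadjusted p-values under 0.05 numbered 0 and 1 for the core proteins and 1 and 3 for the assembly factors; DESeq2 called 0 with siRNA 1 and 1 of each list with siRNA 2, TMM factors 0 with siRNA 1 and 1 and 2 with siRNA 2, all lower, and the exact test called 0. Between the siRNAs, edgeR called 1 assembly factor, lower with siRNA 2, and 0 core proteins. That call was lost without siRNA 1 replicate 1 or 2, or without siRNA 2 replicate 1, 3 or 4. Of 15 NMD factors, 0 were called with siRNA 1 (0 by DESeq2 and by the exact test, and 0 before adjustment at 0.05). With siRNA 2 the exon junction component Casc3 rose by 0.18 on the log2 scale (adjusted p = 0.0368). This call was lost with TMM factors (0.15, adjusted p = 0.0817), in DESeq2 (0.15, adjusted p = 0.147), with no filter on low counts (0.18, adjusted p = 0.0556), and without control replicate 1 (0.17, adjusted p = 0.0969) or 3 (0.14, adjusted p = 0.216) or siRNA 2 replicate 1 (0.18, adjusted p = 0.0598), 2 (0.16, adjusted p = 0.084) or 3 (0.17, adjusted p = 0.0562), in a range of 0.0304 to 0.216.

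Some markers of cell state moved with the siRNAs as well. Of the 10 ESC markers, 6 were called lower with siRNA 1 and 4 with siRNA 2, and 0 higher. Of all genes, 1.97% and 3.55% were called lower. The markers with the lowest adjusted p were Nanog at -0.57 and -0.54, Klf4 at -0.40 and -0.61, Esrrb at -0.34 and -0.55 and Zfp42 at -0.32 and -0.31. The medians of the 10 were -0.20 and -0.12. Others moved little: Dppa4 had 108 CPM in control and 111 and 112 CPM with the siRNAs, and Tdgf1 had 288, 260 and 286 CPM. Summed, the 10 ESC markers took 2079, 2188 and 2128 CPM in control, 1794, 1851, 1972 and 1919 CPM with siRNA 1, and 1924, 1946, 1884 and 1959 CPM with siRNA 2. Pou5f1 remained the most abundant, at 434 ± 11.1 and 473 ± 30.1 CPM with the siRNAs (SD, n = 4). Each of the 10 had reads in each group.

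Of 8 fibroblast markers, 6 were tested. With siRNA 1, 0 were called (1 at an unadjusted p under 0.05, 0 by DESeq2 and by the exact test). With siRNA 2, Col1a1 (0.75, adjusted p = 6.42e-05) and Dcn (1.13, adjusted p = 0.00209) were higher and Col3a1 (-1.42, adjusted p = 0.018) was lower. The Col3a1 call was lost without control replicate 1 (-1.12, adjusted p = 0.136) or siRNA 2 replicate 2 (-1.32, adjusted p = 0.0525) or 4 (-1.15, adjusted p = 0.0712), in a range of 0.011 to 0.136, and DESeq2 gave no adjusted p for Dcn and Col3a1. Their sum was 32, 25.9 and 32.3 CPM in control, 32.4, 32.8, 31 and 29.1 CPM with siRNA 1, and 38.4, 41.6, 37.6 and 42.8 CPM with siRNA 2, with every siRNA 2 library above the others. The most abundant was Col1a2 at 10.8 ± 1.71 CPM in control and 12.4 ± 1.08 CPM with siRNA 1, and Col1a1 at 14.5 ± 1.61 CPM with siRNA 2; Lum had 0 reads in control and Postn 0 reads with both siRNAs. Of 12 markers of differentiated lineages, 9 were tested and 0 were called with either siRNA (2 and 3 at an unadjusted p under 0.05, 0 and 0 by DESeq2, 1 and 0 by the exact test). They summed to 86.8, 86.8 and 83.7 CPM in control, 97.2, 103, 85.7 and 85.7 CPM with siRNA 1, and 84.8, 87.7, 83 and 74.2 CPM with siRNA 2, with Sox1 the most abundant at 32.1 ± 1.53 CPM in control. The part of these markers in the host genes' change was not tested.

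The genes closest to the members' median pattern over the 8 siRNA libraries, among 6044 tested genes of sufficient abundance, were Tet2, Tmeff1, Nr5a2, Kat6b and Impad1, with root mean square differences of 0.0536, 0.0573, 0.0583, 0.0596 and 0.0606 on the log2 scale. They were picked for following the members' median, so their adjusted p-values describe them and lend the members no support. Tet2, which encodes an enzyme that oxidises methylcytosine, had log2 fold changes of -0.23 (adjusted p = 0.00224) and -0.28 (adjusted p = 9.53e-05). Kat6b, a histone acetyltransferase, had -0.23 (adjusted p = 0.00346; 0.0568 without control replicate 2, the highest over the alternatives, the lowest being 6.92e-05) and -0.29 (adjusted p = 0.00014). Tmeff1, a transmembrane protein, had -0.16 with siRNA 1 (adjusted p = 0.0895, in a range of 0.0275 to 0.37) and -0.22 with siRNA 2 (adjusted p = 0.00691), a call lost without control replicate 2 (adjusted p = 0.058) or 3 (adjusted p = 0.0805). The nuclear receptor Nr5a2 had -0.15 with siRNA 1 (adjusted p = 0.286) and -0.23 with siRNA 2 (adjusted p = 0.0441), which was lost in 10 of 19 alternatives (0.0236 to 0.156). Impad1, a Golgi phosphatase, had -0.21 with siRNA 1 (adjusted p = 0.0393), which was lost in 5 of 19 (0.0123 to 0.287), and -0.22 with siRNA 2 (adjusted p = 0.019), which was lost in 3 of 19 (0.00483 to 0.179). Likeness over these libraries is a description and says nothing of shared function.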

How the data were processed

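The authors deposited counts of reads per Ensembl gene for 11 RNA-seq libraries of mouse ESCs. By the submitters' notes and the study's methods, Cutadapt removed adapters, STAR placed the reads on GRCm38, Picard took out duplicates and featureCounts counted what was left; versions and the strand setting of the counting are not given in the sources used here. Summary lines that name no gene, in 10 of the 11 files in the layout of HTSeq, were left out of library sizes and tests; per library they listed 5314618 to 6998875 reads in no gene. Because multiply aligned and ambiguous reads were among them, genes that share exons or sequence can lose reads.

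Symbols, biotypes, coordinates and exon lengths came from GENCODE M21, which held 54809 of the 54838 identifiers. Genes above 1 CPM in at least 4 libraries (16073 genes) were tested in edgeR 4.0.16 (R 4.3.3) by the quasi-likelihood F test on a model of the 3 groups, with total counts as library sizes, the scaling the methods name. P-values were adjusted by Benjamini-Hochberg across the 16073 genes, with calls at 0.05. Each siRNA was compared with control, and siRNA 2 with siRNA 1. The code was tested on simulated data. Alternatives were TMM factors, DESeq2 1.42.0, edgeR's exactTest, another filter and none, a fit of the 2 groups compared, the replicate number as a block, Gm26917 left out of library sizes, and each library left out in turn. Runs of C and T were read from RefSeq promoters of GRCm38.p6. Tables and figures were made with Python 3.11.15, numpy 2.4.6, pandas 2.3.3 and matplotlib 3.10.9.

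The members and gene lists were chosen with earlier results of these data known. The genes named were all members, Cmtr1 and genes of the shorter lists (other noncoding hosts, NMD factors, TOP genes, ESC markers and fibroblast markers). From each of these, all called genes were taken where at most 4 were called with either siRNA. Otherwise the 4 with the lowest adjusted p were taken, of which examples are printed. No called gene was named by this rule from the lists of ribosomal protein, protein-coding host, snoRNA and other long noncoding genes. The closest genes were the 5 with a mean log2 CPM of at least 5 and the smallest root mean square difference from the members' median, over the 8 siRNA libraries, of log2(CPM + 0.5) less its control mean. No sample was left out.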

Additional observations from a re-analysis of the deposited data

Results flagged for a closer look

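In 1 of 28 groups of 4 libraries looked at, a library lay far from the others: Snhg15 in siRNA 2 replicate 2 had 45 CPM, where the other 3 had 43.8 to 44 CPM. Its gap to the nearest library was 0.876 of the group's range, above the 95% critical value of Dixon's test, and chance gives about 1 such group in 20. The range itself was narrow.

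Of 33 named genes, 5 differed between the 2 siRNAs in the edgeR test of that difference, where 7.44% of all genes tested did. Many of the 33 were named for their values in these same libraries, against control or for following the members' median. The count therefore describes the genes named and is no test of them as a set. Snora73b, in an intron of Snhg3, was lower with siRNA 2 by a log2 difference of -0.39 (adjusted p = 1.44e-05). Snhg11, a noncoding snoRNA host outside the members, was higher with siRNA 2 by 0.83 (adjusted p = 2.68e-13). Esrrb, a pluripotency transcription factor, was lower by -0.21 (adjusted p = 0.0312), and its call was lost in 6 of 19 alternatives, with adjusted p from 0.00416 to 0.123. The fibroblast markers Col1a1 and Dcn were higher by 0.76 (adjusted p = 2.05e-05) and 0.99 (adjusted p = 0.00395). The cause of these differences was not tested.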

How the results depend on the processing

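Of 19 alternatives, all called 6 members lower with siRNA 2. With siRNA 1 all called 5 except where a library was left out, when the count was 3 to 5; Snhg3, Snhg5 and Snhg12 were called in 19 of 19 for both siRNAs. With a library left out, the median log2 fold change of the members with siRNA 1 was -0.25 to -0.16. Genes called with siRNA 1 numbered 355 to 852 with a library left out, and up to 999 (exact test) over all 19. The 19 gave 807 to 1658 with siRNA 2 and 724 to 1365 between the siRNAs; DESeq2 called 521, 958 and 740. Between the siRNAs 0 to 1 members were called and Gas5 differed by -0.17 to -0.08. Members that did not pass turned sign: Snhg15 with siRNA 1 had -0.02 with TMM factors, -0.02 in DESeq2 and -0.02 to 0.03 with a library left out, Snhg6 with siRNA 1 had -0.13 to 0.05, Snhg17 with siRNA 1 had -0.05 to 0.03, and Snhg1 between the siRNAs had -0.09 to 0.01. So did Col1a1 with siRNA 1 (-0.06 to 0.05), Snora73a with siRNA 2 (-0.06 to 0.28) and Snord87 with siRNA 1 (-0.14 to 0.26). The cause was not tested.

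Replicate numbers did not pair the libraries: deviations of 10 same-numbered pairs had a mean correlation of 0.01 (-0.065 to 0.07), and 4 of 11 libraries correlated best with their own number. With the replicate block, 840, 1486 and 1242 genes and 5, 6 and 0 members were called in the 3 comparisons.

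Runs of at least 5 bases at the start were found in 4 of the members' 10 promoter entries within 5 bases, where 18.3% of all entries had one, and in 6 within 20, where 49.4% had one.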
